A study of Mus musculus with 4 samples.

Results

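The 10 genes examined here make nitric oxide, supply or spare what that reaction needs, or compete for its substrate: the synthases Nos1, Nos2 and Nos3, the cofactor gene Gch1, the inhibitor-removing genes Ddah1 and Ddah2, the arginases Arg1 and Arg2, and the arginine-making genes Ass1 and Asl. They were chosen by name, and each gene was represented by the probe set with the highest mean over the 4 arrays among those annotated to that gene alone. Of the 10 genes, 9 had a probe set of their own, out of 30702 genes measured, and each of the 9 had 1. Ass1 had no probe set of its own, because its probe set was annotated to Ass1 and Gm5424 together, and that shared probe set is described separately. The study measured RNA from whole lungs on Affymetrix arrays, 2 from wild-type (WT) mice of strain C57/BL6 and 2 from mice with sickle cell disease (SCD) of the strain labelled SCD Tg, all adult and matched for age. The sources used here do not give the globin alleles or line of the SCD Tg mice, their age in weeks or their sex. Genotype and strain background cannot be told apart. The labels do not say that lungs 1 and 2 of a group came from separate mice. The p-values therefore measure spread between arrays, not a known spread between mice. For each gene, limma's standard error and p-value combine the spread between its own arrays with that of genes of similar intensity.

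Nitric oxide is made from the amino acid arginine by the 3 nitric oxide synthases, named for the neurons (Nos1), activated macrophages (Nos2) and endothelium (Nos3) in which each was first studied. The reaction needs tetrahydrobiopterin, whose synthesis starts with the enzyme encoded by Gch1, and it is inhibited by methylated arginines such as asymmetric dimethylarginine, which the enzymes encoded by Ddah1 and Ddah2 break down. Arginases remove arginine by turning it into ornithine and urea, while the enzymes of Ass1 and Asl rebuild arginine from citrulline, the by-product of nitric oxide synthesis. In sickle cell disease, hemoglobin and arginase set free by breaking red cells are known to consume nitric oxide and arginine, and the pathway has long been studied for its part in pulmonary hypertension.

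Arrays of a group were slightly more alike than arrays of different groups, with a Pearson r over 30702 genes, which are not independent replicates, of 0.992 for WT, 0.995 for SCD and 0.986 to 0.988 across groups. Lung epithelial markers were bright on every array, with Sftpb, a surfactant gene, between 16.71 and 16.85, and Cyp2f2, a club cell gene, between 17.13 and 17.25. The female marker Xist lay between 16.75 and 16.81 on the 4 arrays and the Y-linked genes Eif2s3y, Kdm5d and Uty between 4.36 and 4.99, with no array standing apart. All levels are log2 expression values, and each difference is the SCD mean less the WT mean of these, with limma's standard error after the ± sign and n = 2 arrays in each group. The arrays carry control probe sets in introns, which are largely spliced out of mature RNA. Their median was 6.48 and 6.47 in WT lung and 6.31 and 6.28 in SCD lung, while the exon control median was 10.01 and 10.15 on the WT arrays against 10.26 and 10.29 on the SCD arrays. An alternative subtracts this rise of the exon controls from every gene, and is called the exon control shift taken off.

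The promoter windows of the 2 genes that passed the test, Gch1 and Ddah1, and of Ddah2, the close relative of Ddah1 that did not pass, are shown for comparison. The RefSeq table of GRCm38.p6 gave windows for 5 of the 10 genes (Ass1, Ddah1, Ddah2, Gch1 and Nos1), from 250 bases before to 50 bases after the start site, written 5′ to 3′ on the strand of the gene. Capitals mark matches, on either strand, to the TATA motif searched as TATAAA, the motif CCAAT, the GC box searched as GGGCGG, the interferon gamma activated site searched as TTCNNNGAA, the cAMP response element searched as TGACGTCA, the E-box searched as CACGTG and the antioxidant response element searched as TGACNNNGC, or to the NF-kB site and the heat shock element, which are given by name alone. The Gch1 window is chr14:47189364-47189663 on the minus strand, the Ddah1 window chr3:145758442-145758741 on the plus strand and the Ddah2 window chr17:35058785-35059084 on the plus strand.
Gch1: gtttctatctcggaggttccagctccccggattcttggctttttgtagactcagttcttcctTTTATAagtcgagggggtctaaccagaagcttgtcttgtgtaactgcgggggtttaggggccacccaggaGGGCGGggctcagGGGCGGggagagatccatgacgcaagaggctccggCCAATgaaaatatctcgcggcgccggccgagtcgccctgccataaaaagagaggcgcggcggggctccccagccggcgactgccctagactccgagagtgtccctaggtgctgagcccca
Ddah1: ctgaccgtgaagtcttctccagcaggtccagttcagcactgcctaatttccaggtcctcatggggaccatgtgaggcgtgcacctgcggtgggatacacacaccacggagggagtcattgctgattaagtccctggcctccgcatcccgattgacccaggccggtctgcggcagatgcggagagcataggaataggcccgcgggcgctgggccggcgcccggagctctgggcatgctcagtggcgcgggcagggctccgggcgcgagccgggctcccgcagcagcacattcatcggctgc
Ddah2: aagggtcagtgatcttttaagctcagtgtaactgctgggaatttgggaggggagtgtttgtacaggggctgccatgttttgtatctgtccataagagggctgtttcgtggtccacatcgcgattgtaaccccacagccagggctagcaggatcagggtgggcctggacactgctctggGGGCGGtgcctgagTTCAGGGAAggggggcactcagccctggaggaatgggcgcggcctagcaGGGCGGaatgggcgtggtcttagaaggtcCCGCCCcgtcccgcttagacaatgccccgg
The Gch1 window held a CCAAT match, which begins 70 bases before the start site, 2 GC boxes, and a TATA match on the opposite strand far upstream. The Ddah1 window held no match to any of the 9 motifs, which says only that these letters are not in this window. The Ddah2 window held 3 GC boxes and 1 match to TTCNNNGAA. Of the windows not shown, that of Ass1 held a GC box and an E-box, and that of Nos1 an NF-kB site. Of 32851 windows of this length, 37.4% held a CCAAT match, 35.7% a GC box, 13.6% a TATA match and 8.3% a match to TTCNNNGAA, in any position and on either strand. The shares were 1.79% for TGACGTCA, 7.15% for CACGTG, 12.4% for TGACNNNGC, 1.63% for the NF-kB site and 0.603% for the heat shock element. The windows of Gch1 and Ddah1 were 60.3% and 65.7% G and C, that of Ddah2 59.7%, and the median window 52.7%. CG dinucleotides numbered 20 in the Gch1 window, 23 in that of Ddah1 and 12 in that of Ddah2, against a median of 7 over all windows. A match is a description of the letters and not a measurement of binding.

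Of the 9 genes measured alone, Gch1 and Ddah1 rose in SCD lung, none fell and 7 did not pass an adjusted p of 0.05 in limma over all 30702 genes. Over the whole array, 3.1% of genes passed in either direction, 2.47% as higher and 0.635% as lower. The median difference over the 9 genes was 0.07, against 0.0020 over all genes. The values of the WT and SCD arrays did not overlap for 5 of the 9 genes, 4 with SCD higher (Nos3, Gch1, Ddah1 and Arg2) and 1 with SCD lower (Nos1). Of all genes 47.7% did not overlap, 25.3% with SCD higher and 22.5% with SCD lower. Without SCD replicate 1, and likewise without SCD replicate 2, 0 of the 9 genes passed, and limma called 0 genes in all, with 3306 and 3270 below 0.05 before adjustment. In bulk lung, a change in the number of cells that express a gene and a change in RNA per cell cannot be told apart.

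**Figure D1:**
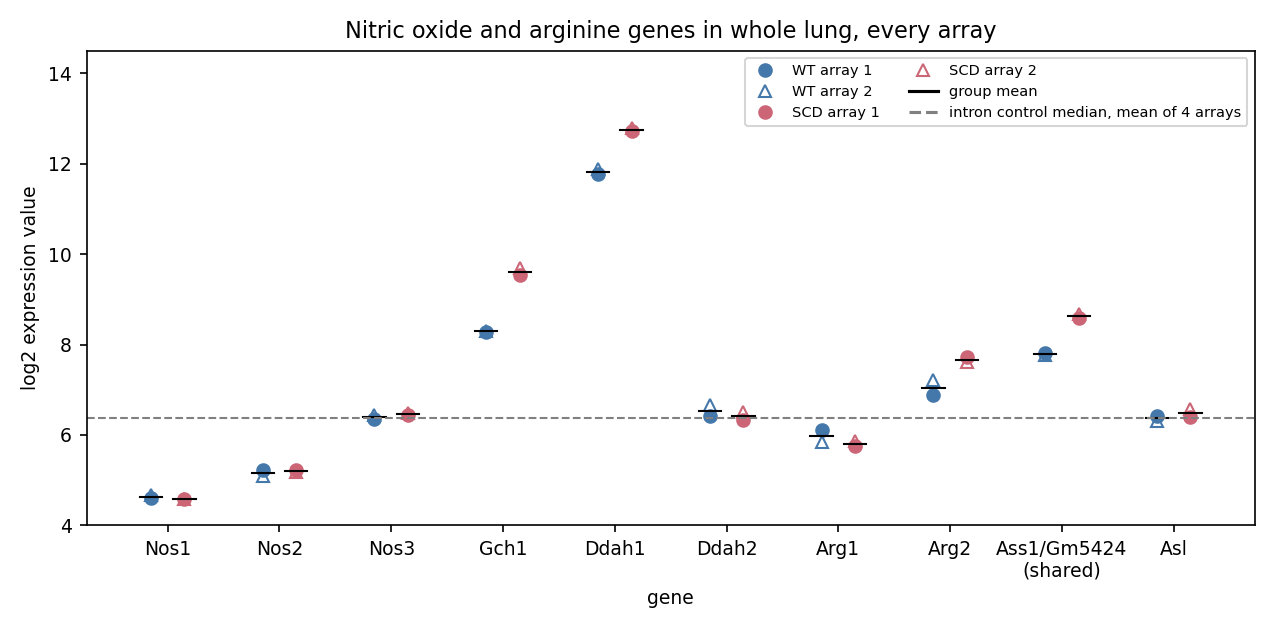
Log2 expression value (vertical axis) of the 9 genes measured alone and of the probe set shared by Ass1 and Gm5424 (horizontal axis), with 1 symbol for each array, the group means as black bars and the intron control median, averaged over the 4 arrays, as a dashed line. For Gch1, Ddah1 and the shared probe set both SCD arrays lie well above both WT arrays. For Arg2 both SCD arrays also lie above both WT arrays, but the WT arrays lie far apart (6.87 and 7.22). Nos1, Nos2 and Arg1 lie below the dashed line on all arrays. Heights of different genes are not comparable because each has its own probes.

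None of the 3 synthase genes passed the test. Nos3, the endothelial synthase, was 6.35 and 6.43 in WT lung and 6.44 and 6.49 in SCD lung. Both SCD values lay above both WT values, but the gap between the nearest arrays was smaller than the distance between the WT arrays. The difference was 0.07 ± 0.11 (adjusted p = 0.798), with a 95% interval from -0.20 to 0.35, or 0.871-fold to 1.27-fold. Nos2, the cytokine-induced synthase of macrophages and epithelium, was 5.22 and 5.09 on the WT arrays against 5.23 and 5.19 on the SCD arrays. These overlap, and the difference of 0.05 ± 0.12 (adjusted p = 0.884) had an interval from -0.25 to 0.35. Nos1, the neuronal synthase, was 4.61 and 4.66 in WT lung and 4.58 and 4.58 in SCD lung, a difference of -0.06 ± 0.11 (adjusted p = 0.862; interval from -0.35 to 0.23). All 3 synthases were dim: 17.1% of the 5222 intron control probe sets lay below the mean of Nos1, 26.8% below that of Nos2 and 52.3% below that of Nos3. With the exon control shift taken off, the differences of Nos2 (-0.15) and Nos3 (-0.12) turned negative, and neither passed.

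**Figure D2:**
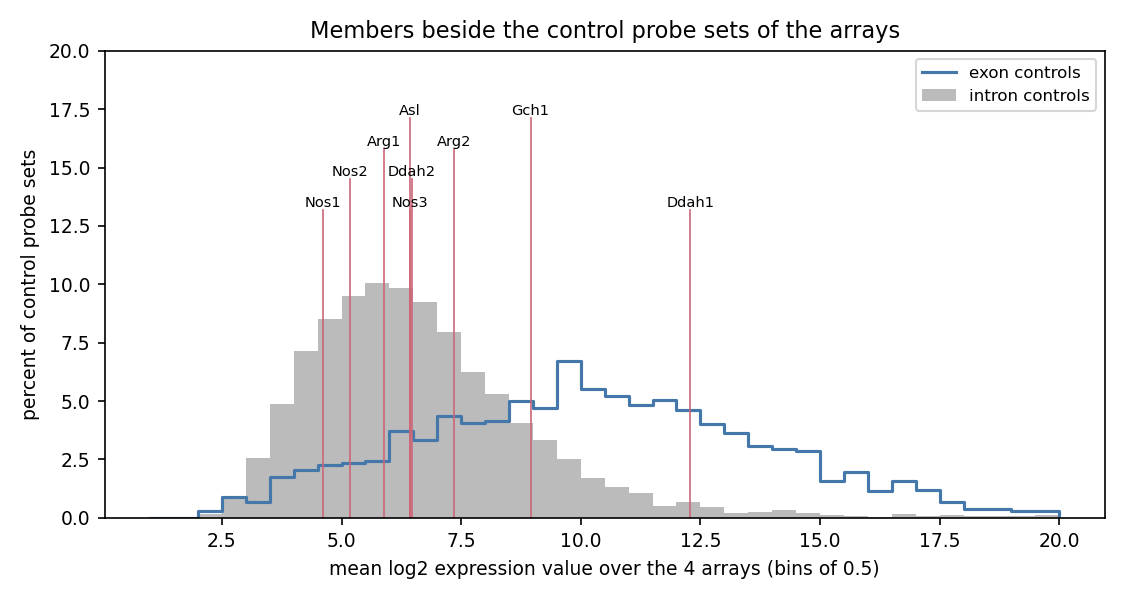
Percent of control probe sets (vertical axis) in bins of 0.5 of the mean log2 expression value over the 4 arrays (horizontal axis), with intron controls as grey bars, exon controls as the blue line and each of the 9 genes as a red line at its mean. Nos1, Nos2, Nos3, Ddah2, Arg1 and Asl lie within the bulk of the intron controls, Arg2 and Gch1 above 68.3% and 86.1% of them and Ddah1 above 97.2%.

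Of 9 measured partners and regulators of the synthases, 1 rose. Hsp90aa1, the chaperone that binds Nos3 protein, rose by 0.97 ± 0.07 (adjusted p = 0.0078), from 14.15 and 14.26 on the WT arrays to 15.16 and 15.20 on the SCD arrays. The other 8 did not pass, and the list median was 0.11. Nostrin, which draws Nos3 away from the membrane, had a difference of -0.43 ± 0.12 (adjusted p = 0.178), and Dynll1, a dynein light chain that binds Nos1, one of 0.44 ± 0.13 (adjusted p = 0.192). Cav1, the caveolar protein that holds Nos3 inactive, had a difference of -0.12 ± 0.06 (adjusted p = 0.447) and was chosen for mention once its value was known. Cav3, the muscle caveolin, had a difference of 0.33 ± 0.15 (adjusted p = 0.372).

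Cofactor supply showed the largest difference among the 9 genes. Gch1, which encodes GTP cyclohydrolase 1, the first and rate-limiting enzyme of tetrahydrobiopterin synthesis, was 8.28 and 8.30 on the WT arrays against 9.53 and 9.69 on the SCD arrays. The WT arrays (8.29 ± 0.015, mean ± SD) lay close together, and the SCD arrays (9.61 ± 0.11) were both far above them. Gch1 rose by 1.32 ± 0.10 (adjusted p = 0.0078), which is 2.50-fold with a 95% interval from 2.08-fold to 2.99-fold, and stood at number 237 of 30702 genes in order of increase. Without SCD replicate 1 the difference was 1.40 (adjusted p = 0.083) and without SCD replicate 2 it was 1.24 (adjusted p = 0.108).

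None of the 6 measured genes that complete or recycle tetrahydrobiopterin passed, with a list median of 0.12. Pcbd1, which helps to recycle the cofactor, was 7.87 and 7.78 in WT lung and 8.71 and 8.40 in SCD lung, a difference of 0.73 ± 0.14 (adjusted p = 0.075). It did pass in limma with protein-coding genes alone (adjusted p = 0.033) and without the dimmest 50% of genes (adjusted p = 0.047). Pts, the second enzyme of the synthesis, had a difference of 0.22 ± 0.08 (adjusted p = 0.285) and Spr, the last, one of -0.46 ± 0.15 (adjusted p = 0.222). Gchfr, the feedback regulator of the Gch1 enzyme, was at 0.23 ± 0.18 (adjusted p = 0.599), with 0.45 without SCD replicate 1 and 0.014 without SCD replicate 2.

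Inflammatory signals are known inducers of Gch1 and Nos2. In all, 10 genes of such signals, their receptors and the proteins that pass on or restrain them were measured. Il1b, the interleukin 1 beta gene, rose by 2.65 ± 0.19 (adjusted p = 0.0078), from 6.62 and 6.11 on the WT arrays to 8.97 and 9.07 on the SCD arrays. The other 9 did not pass: Jak2, a kinase of interferon signalling, was at 0.45 ± 0.08 (adjusted p = 0.066), Tnf at 0.56 ± 0.14 (adjusted p = 0.127) and Rela, an NF-kB subunit, at 0.41 ± 0.11 (adjusted p = 0.169). Jak2 passed with protein-coding genes alone (adjusted p = 0.027) and without the dimmest 50% of genes (adjusted p = 0.039). All 10 differences were above 0, with a median of 0.36, and 50.3% of all genes were above 0. Ifngr2 (0.02), Irf1 (0.02), Ifngr1 (0.09) and the NF-kB inhibitor gene Nfkbia (0.11), chosen for mention once their values were known, overlapped between the groups. Neutrophil markers moved in the same arrays: 6 of 9 rose, among them S100a9 by 2.51 ± 0.11, and 3 did not pass. Their summed linear signal was 68864 to 90742 on the WT arrays against 441815 to 492788 on the SCD arrays, with S100a8 and S100a9 making up 97.6% of it. Without these it was 2619 to 3602 on the WT arrays against 8580 to 10933 on the SCD arrays. Of 10 markers of monocytes and interstitial macrophages 2 rose, Ly6c2 by 1.55 ± 0.05 and Ccr2 by 1.11 ± 0.10. The summed signal of 9 of them (Lyz2 held the same value on every array) went from between 38692 and 38718 to between 110482 and 112912, and Ly6c2 alone made up 97.8% of it. Without Ly6c2 it was 1216 to 1358 in WT lung and 2061 to 2100 in SCD lung, the median difference of the 10 markers was 0.45, and 8 of the 10 did not pass. The part of these cells in the Gch1 difference was not tested.

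Of the 2 genes of inhibitor removal, Ddah1 rose and Ddah2 did not pass. Ddah1, which encodes the form of dimethylarginine dimethylaminohydrolase best known for degrading asymmetric dimethylarginine, was 11.78 and 11.87 in WT lung and 12.73 and 12.78 in SCD lung. The SCD values were close together and well above both WT values. Ddah1 rose by 0.93 ± 0.08 (adjusted p = 0.0086), or 1.90-fold with a 95% interval from 1.66-fold to 2.19-fold, at number 622 in order of increase. Without SCD replicate 1 the difference was 0.95 (adjusted p = 0.116) and without SCD replicate 2 it was 0.91 (adjusted p = 0.129). Ddah2, the second form of the enzyme, was 6.41 and 6.65 on the WT arrays against 6.33 and 6.50 on the SCD arrays. These overlap, and the difference was -0.12 ± 0.14 (adjusted p = 0.748; interval from -0.47 to 0.24). The upper end of that interval lies below the lower end of the interval of Ddah1 (0.73), which is not a test of unequal change. Within each array, Ddah1 minus Ddah2 was 5.37 and 5.22 in WT lung and 6.41 and 6.28 in SCD lung, so that Ddah1 gained 1.05 on Ddah2. An exact two-sided permutation test over the 4 arrays gave p = 0.333, the smallest value that 2 arrays against 2 can give (0.417 adjusted over the 5 pairs compared). Ddah2 was dim, above 53.3% of the intron controls.

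On the side of inhibitor production, no measured arginine methyltransferase passed the test, and Prmt2 was not measured alone. None of 7 measured genes passed, 6 methyltransferases and Agxt2, which removes methylated arginines by another route, with a list median of -0.0038. Prmt1, the main source of asymmetric dimethylarginine, was at -0.0038 ± 0.10 (adjusted p = 0.992) and was chosen for mention once its value was known. Prmt3 was at -0.25 ± 0.11 (adjusted p = 0.359), Prmt6 at -0.15 ± 0.11 (adjusted p = 0.589), Prmt7 at 0.16 ± 0.12 (adjusted p = 0.594) and Prmt5, which makes the symmetric form, at 0.11 ± 0.11 (adjusted p = 0.704). With the exon control shift taken off, the signs of Prmt7 and Prmt5 turned.

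**Figure D3:**
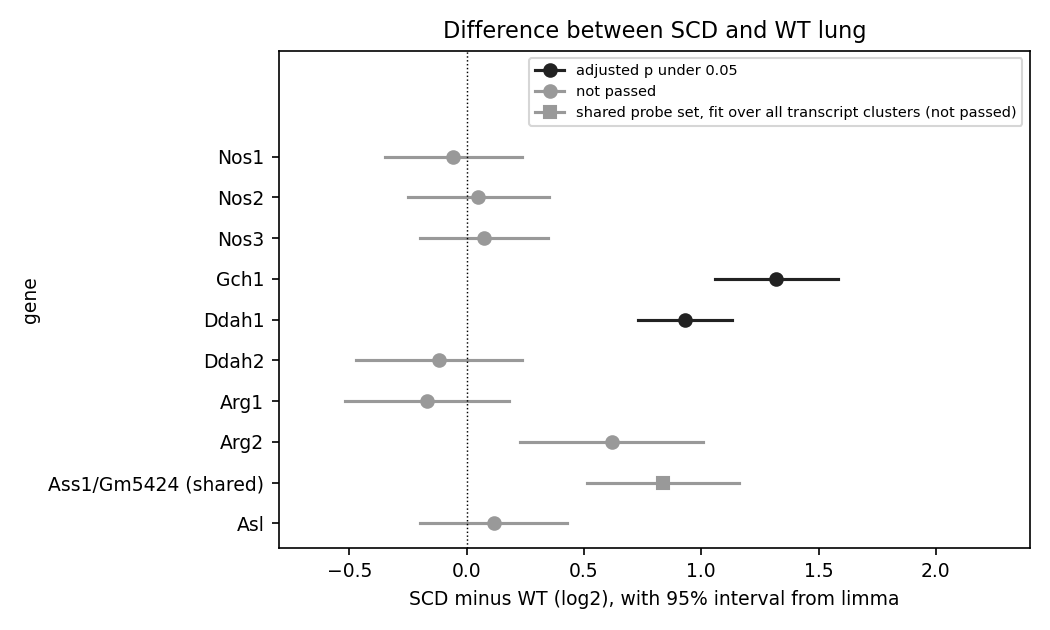
Difference SCD minus WT on the log2 scale (horizontal axis) with its 95% interval from limma for each gene (vertical axis), where black marks genes past an adjusted p of 0.05, grey those that did not pass and the square the probe set shared by Ass1 and Gm5424. Gch1 (1.32) and Ddah1 (0.93) pass, and the intervals of Arg2 and of the shared probe set also lie above 0 before adjustment over all genes.

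Arginine use was examined next. Arg1, the arginase of liver cytosol and of alternatively activated macrophages, was 6.11 and 5.85 on the WT arrays against 5.76 and 5.86 on the SCD arrays. The groups overlap, and the difference was -0.17 ± 0.14 (adjusted p = 0.619; interval from -0.52 to 0.18). It was -0.040 without WT replicate 1 and -0.30 without WT replicate 2. Arg2, the mitochondrial arginase of many tissues, was 6.87 and 7.22 in WT lung and 7.73 and 7.60 in SCD lung. Both SCD values were higher, although the WT arrays were 7.05 ± 0.25 (mean ± SD). The difference of 0.62 ± 0.15 did not pass (adjusted p = 0.129; interval from 0.23 to 1.01; 1.54-fold), and its adjusted p ran from 0.066 to 0.481 over 19 other settings. Within each array, Arg2 minus Arg1 was 0.77 and 1.37 on the WT arrays against 1.97 and 1.74 on the SCD arrays. That gain of 0.79 had an exact permutation p = 0.333, again the smallest possible (0.417 adjusted over the 5 pairs).

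Of 10 measured genes that usually accompany Arg1 in alternative macrophage activation, 2 rose. Retnla, which encodes a resistin-like secreted protein, rose by 2.12 ± 0.10 (adjusted p = 0.0036), from 11.39 and 11.62 on the WT arrays to 13.66 and 13.58 on the SCD arrays. The chemokine gene Ccl17 rose by 2.13 ± 0.18 (adjusted p = 0.0088). The other 8 did not pass, with Chil3, a chitinase-like protein gene, at 0.39 ± 0.08 (adjusted p = 0.086) and the mannose receptor gene Mrc1 at 0.37 ± 0.11 (adjusted p = 0.183). Chil3 passed with protein-coding genes alone (adjusted p = 0.034). The cytokine genes Il4 (-0.16 ± 0.16; adjusted p = 0.682) and Il13 (-0.21 ± 0.15; adjusted p = 0.587), chosen for mention once their values were known, did not pass either. Alveolar macrophage markers went both ways: of 7 measured, Marco fell by 1.48 ± 0.10, Car4, which capillary endothelium also expresses, rose by 1.18 ± 0.09, and 5 did not pass. Their summed linear signal was 6502 to 6774 in WT lung and 12139 to 13883 in SCD lung, of which Car4 made up 86.6%. Without Car4 the sum was 1379 to 1483 in WT lung and 1165 to 1239 in SCD lung, and the median difference of the 7 markers was -0.34.

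Downstream of arginase, 3 of 12 measured genes of ornithine, polyamine, proline, creatine and agmatine metabolism rose, none fell and 9 did not pass; the list median was 0.13. Odc1, ornithine decarboxylase, which turns ornithine into the first polyamine, rose by 1.07 ± 0.09 (adjusted p = 0.0081), from 11.89 and 11.72 in WT lung to 12.87 and 12.88 in SCD lung. Azin1, the antizyme inhibitor that protects this enzyme from degradation, rose by 0.73 ± 0.08 (adjusted p = 0.019), from 10.32 and 10.37 to 11.04 and 11.11. Gatm, which moves the amidino group of arginine onto glycine in creatine synthesis, rose by 1.64 ± 0.18 (adjusted p = 0.017), from 5.85 and 6.22 to 7.82 and 7.53. For each of these 3 the SCD arrays lay above both WT arrays, as they did for 25.3% of all genes. Without WT replicate 1, Azin1 and Gatm no longer passed (adjusted p of 0.066 and 0.061), and Azin1 was also lost in the fit over every transcript cluster (adjusted p = 0.056). The spermidine synthase gene Srm was at 0.81 ± 0.17 (adjusted p = 0.088) and passed with protein-coding genes alone (adjusted p = 0.041) and without WT replicate 2 (adjusted p = 0.047).

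The genes that rebuild arginine could be read only in part. The probe set shared by Ass1 and Gm5424, a transcribed pseudogene in the RefSeq table, was 7.81 and 7.77 on the WT arrays against 8.58 and 8.68 on the SCD arrays. Both SCD values were higher, by far more than the distance between arrays of a group. In the fit over all 65956 transcript clusters, where 1.47% passed (0.914% as higher and 0.553% as lower), the difference was 0.84 ± 0.12 and did not pass (adjusted p = 0.067). With the probe sets named for several genes added to the gene table, an alternative chosen after seeing the data in which 3.18% of 32107 features passed, the same difference of 0.84 passed (adjusted p = 0.022). The probe set of Gm5424 alone was 7.14 and 7.38 in WT lung and 8.21 and 7.96 in SCD lung, a difference of 0.83 ± 0.15 (adjusted p = 0.061). Which of the 2 genes gave the shared signal cannot be told apart on this array. Asl, which splits argininosuccinate into arginine and fumarate, was 6.43 and 6.31 on the WT arrays against 6.39 and 6.57 on the SCD arrays. These overlap, and the difference was 0.12 ± 0.12 (adjusted p = 0.713; interval from -0.20 to 0.43), which turned to -0.080 with the exon control shift taken off. Within each array, the shared probe set minus Asl was 1.38 and 1.46 in WT lung and 2.18 and 2.10 in SCD lung, a gain of 0.72 (exact permutation p = 0.333; 0.417 adjusted over the 5 pairs).

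The other urea cycle genes, which work in liver mitochondria, stayed dim. Otc, which makes citrulline from ornithine, was at 0.63 ± 0.13 (adjusted p = 0.093), with 4.31 and 4.54 on the WT arrays against 5.03 and 5.09 on the SCD arrays. It passed with protein-coding genes alone (adjusted p = 0.042). Cps1 (-0.03 ± 0.13; adjusted p = 0.951) and Nags (-0.05 ± 0.14; adjusted p = 0.902) did not pass. Of 6 hepatocyte markers, Alb fell by 0.77 ± 0.12, 5 did not pass, and the summed linear signal was 313 to 334 in WT lung and 301 to 314 in SCD lung. Among 10 transporters of arginine and related amino acids none passed, with a median of -0.05. Slc7a1, the main cationic amino acid carrier, was at 0.33 ± 0.15 (adjusted p = 0.382), with 0.50 without WT replicate 1 and 0.15 without WT replicate 2. The others among the 4 with the smallest p were Slc7a2 at 0.22 ± 0.11 (adjusted p = 0.430), Slc7a6 at 0.32 ± 0.11 (adjusted p = 0.256) and the mitochondrial ornithine carrier Slc25a2 at -0.30 ± 0.12 (adjusted p = 0.285).

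**Figure D4:**
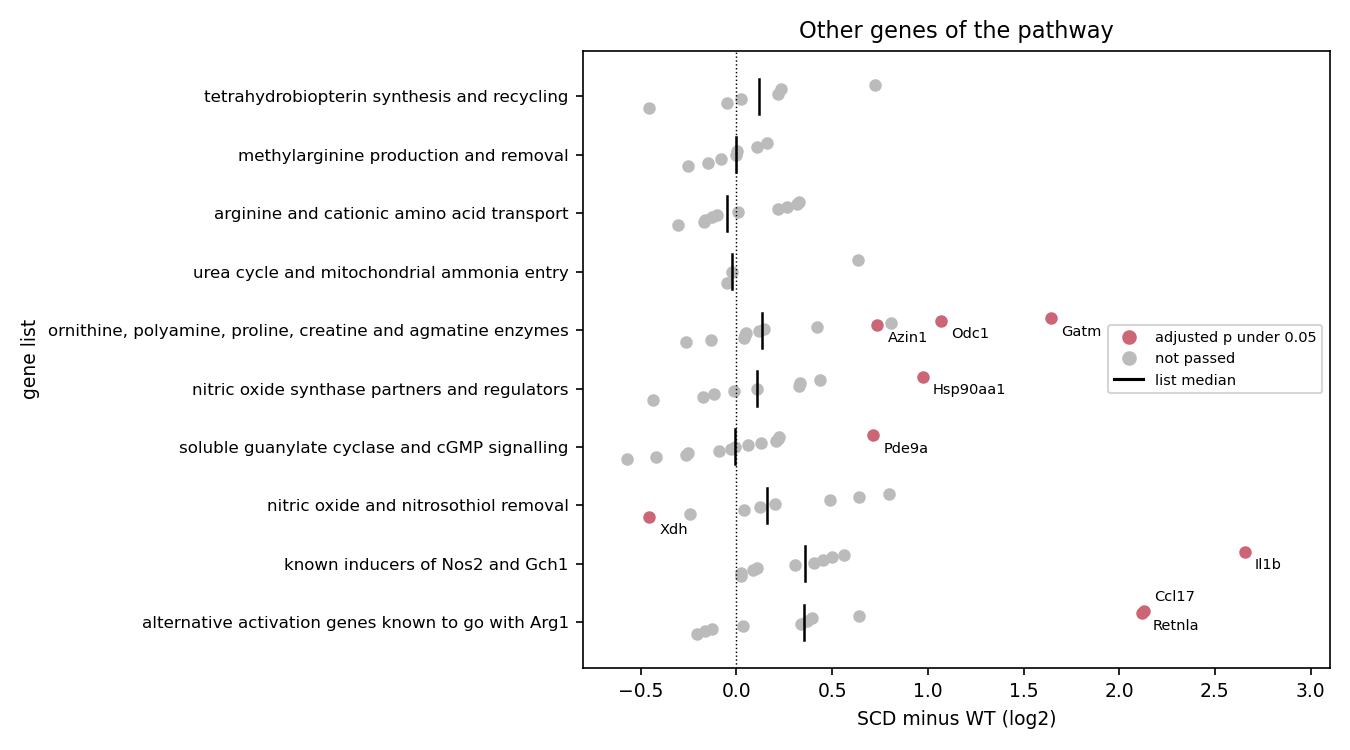
Difference SCD minus WT on the log2 scale (horizontal axis) of every measured gene of 10 lists from the wider pathway (vertical axis), with red and a name for genes past an adjusted p of 0.05, grey for the others and a black bar for the list median. Named genes lie on the right of 0 except Xdh (-0.46), and no gene passed in the lists of tetrahydrobiopterin, methylarginine, transport and urea cycle genes.

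Nitric oxide acts by binding soluble guanylate cyclase, which makes cyclic GMP. Of 13 measured genes of this arm, Pde9a rose, none fell and 12 did not pass; the median was -0.0078. Pde9a, which degrades cyclic GMP, rose by 0.71 ± 0.09 (adjusted p = 0.028), from 8.06 and 8.07 on the WT arrays to 8.76 and 8.79 on the SCD arrays. Its call was lost with the replicate block (adjusted p = 0.052) and without WT replicate 1 or WT replicate 2 (adjusted p of 0.086 and 0.067), among the 7 of 19 settings that ended it. Pde5a, the cyclic GMP phosphodiesterase blocked by sildenafil, was 11.91 and 12.00 on the WT arrays against 11.47 and 11.59 on the SCD arrays, a difference of -0.42 ± 0.09 (adjusted p = 0.092). Pde3a, a phosphodiesterase that cyclic GMP inhibits, was at -0.57 ± 0.12 (adjusted p = 0.087). Both passed with protein-coding genes alone (adjusted p of 0.040 for each) and with the exon control shift taken off (adjusted p of 0.035 for Pde5a and 0.042 for Pde3a). The cyclase subunit gene Gucy1b1 was at -0.25 ± 0.10 (adjusted p = 0.312).

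Among 8 genes that consume nitric oxide or release it from thiols, Xdh fell and 7 did not pass. Xdh, which encodes xanthine oxidoreductase, a source of superoxide, fell by 0.46 ± 0.07 (adjusted p = 0.041), from 15.24 and 15.37 on the WT arrays to 14.85 and 14.84 on the SCD arrays. This call was lost in 8 of 19 settings, among them without WT replicate 2 (adjusted p = 0.058), and with the mean of its probe sets the difference was -0.22 (adjusted p = 0.253). The thioredoxin reductase gene Txnrd1 was at 0.80 ± 0.15 (adjusted p = 0.072), the myoglobin gene Mb at 0.64 ± 0.13 (adjusted p = 0.093) and Cyb5r3, which keeps endothelial globin in the reduced state, at 0.49 ± 0.16 (adjusted p = 0.220). With protein-coding genes alone Txnrd1 (adjusted p = 0.032) and Mb (adjusted p = 0.043) passed, and Txnrd1 also passed without the dimmest 50% of genes (adjusted p = 0.046) and with quantile normalization (adjusted p = 0.049). Over the 10 lists together, 87 genes were measured alone, of which 8 rose, 1 fell and 78 did not pass (10.3% called, against 3.1% of all genes), and their median was 0.105. Without SCD replicate 1 or SCD replicate 2 none of these calls passed. The lists were drawn up with earlier results of these arrays known, and nothing particular to them is read from this share.

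Nos3 is best known from endothelial cells. Of 11 measured endothelial markers, Tek, Ptprb and Cdh5 fell, by 1.94, 1.82 and 0.47, none rose and 8 did not pass. Their summed linear signal was 84276 to 94273 in WT lung and 57059 to 58702 in SCD lung, with Cdh5 and Ptprb making up 67.5% of it, and without these it was 24165 to 27424 in WT lung and 21567 to 22602 in SCD lung. Cldn5 (0.65 ± 0.16, adjusted p = 0.136), Pecam1 (0.24 ± 0.10) and Vwf (0.06 ± 0.09), chosen for mention once their values were known, did not pass. Of the 11 differences 4 were above 0, and the median was -0.37. The part of endothelial cells in the values of Nos3 was not tested. Within each array, Nos2 minus Nos3 was -1.12 and -1.34 on the WT arrays against -1.22 and -1.30 on the SCD arrays, a difference of -0.02 (exact permutation p = 1). Gch1 minus Nos3 was 1.93 and 1.87 in WT lung and 3.09 and 3.20 in SCD lung, a gain of 1.25 for the cofactor gene (exact permutation p = 0.333; 0.417 adjusted over the 5 pairs).

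Other cell type markers moved as well. Of 7 markers of airway club and ciliated cells, Rsph1, Dnah5 and Ccdc153 rose, by 1.29, 1.06 and 1.22, and 4 did not pass; the summed signal of the 6 that varied was 243804 to 254651 on the WT arrays against 260386 to 260647 on the SCD arrays. The club cell genes Cyp2f2 and Scgb3a2 made up 98.1% of that sum, and without them it was 2833 to 3106 in WT lung and 6873 to 6900 in SCD lung. Of 6 erythroid markers Alas2, Fech and Slc4a1 rose and 3 did not pass. The summed signal of the 6 was 779 to 808 in WT lung and 5861 to 6246 in SCD lung. Alas2 made up 76.5% of it, and Alas2 and Fech together 94.7%. Without both it was 152 to 153 in WT lung and 198 to 221 in SCD lung. Of 6 markers of cardiac muscle Nppa and Myl7 rose and 4 did not pass. Their summed signal was 13349 to 14377 on the WT arrays against 25517 to 27071 on the SCD arrays, 93.7% of it from Myl7 and Tnnt2. Without both it was 836 to 837 on the WT arrays against 1618 to 1764 on the SCD arrays. Cnn1 was the 1 of 5 smooth muscle markers that rose (0.96 ± 0.13). The summed signal of the 5 was 3292 to 3982 in WT lung and 5402 to 5416 in SCD lung, 64.6% of it from Acta2. Without Acta2 it was 1331 to 1540 in WT lung and 1758 to 1777 in SCD lung. None of 7 alveolar type 2, 7 alveolar type 1 and 6 neuronal markers passed. The part of these cells in the differences of Gch1, Ddah1 and Arg2 was not tested.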

How the data were processed

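The authors deposited 1 table of log2 expression values for 72688 probe sets on 4 arrays; RMA, Partek and Affymetrix Expression Console are named per the submitters' processing notes, with no version or role. The log2 scale was read from the values. Gene names came from the platform's annotation, and old symbols were replaced with those of the RefSeq table of GRCm38.p6: 31258 of 65956 transcript clusters named 1 gene, 1492 several and 33206 none. No filter was applied, and the number of arrays limits precision. The fit used limma 3.58.1 in R 4.3.3 (lmFit, eBayes with an intensity trend, group as the only term), two-sided, with Benjamini-Hochberg adjustment over all genes.

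Genes named by rule are the 10 chosen ones and up to 3 markers of each cell type, not all of which are printed. List genes named by rule are those past the threshold or, where under 4 passed, those with the smallest p up to 4 in a list. List genes given with values outside the rule are marked in the text as chosen once their values were known. Members and lists were chosen with earlier results of these data known. Summed signals leave out genes with identical values on all arrays. On simulated data for SCD against WT over 30702 genes, 15.4% of genes given a log2 change of 1 and 84.8% of those given 2 passed, with 5.6 false calls on average. The simulations drew independent noise and changed fewer genes than passed in the real data, so these rates need not hold there. The labels do not say that lungs sharing a replicate number are paired, and the main fit did not pair them. The planned use of the Ass1 probe set was changed because it names 2 genes. Other settings changed the block, trend, weights, filter, probe set, normalization, gene set and threshold, and left out each array.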

Additional observations from a re-analysis of the deposited data

How the results depend on the processing

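The rises of Gch1 and Ddah1 passed in 17 of 19 other settings each, and kept their direction in all 19. Leaving out 1 array at a time gave 1.24 to 1.40 for Gch1, 0.88 to 0.98 for Ddah1, 0 to 2 for the number of the 9 genes that rose, 0 to 8 for list genes that rose and 0 to 1 for those that fell; the calls were lost without SCD replicate 1 and without SCD replicate 2. Gch1 ran from 1.12 to 1.40 over the settings and Ddah1 from 0.73 to 0.98, the lowest with the exon control shift taken off. That setting also lowers the median of all genes from 0.0020 to -0.19, and turned the signs of Nos2 (-0.15), Nos3 (-0.12), Asl (-0.080), Prmt7 (-0.036) and Prmt5 (-0.087). Without WT replicate 2, Nos2 (-0.016) and Ddah2 (0.0029) turned, and without WT replicate 1, Nags (0.067) and Cps1 (0.063). Leaving out 1 array at a time gave -0.016 to 0.118 for Nos2, -0.235 to 0.0029 for Ddah2, -0.169 to 0.067 for Nags and -0.113 to 0.063 for Cps1. Of 37 chosen and list genes named by the rule that did not pass, 18 moved by over 1.5 times in at least 1 such fit: Nos1, Nos2, Nos3, Ddah2, Arg1, Asl, Cav3, Cps1, Cyb5r3, Gchfr, Gucy1b1, Nags, Prmt5, Prmt6, Prmt7, Slc7a1, Slc7a2 and Spr. Among the 11 that passed, 0 moved by as much. Of the 37, 9 passed in at least 1 other setting. Cps1 also turned with quantile normalization (0.014), equal array medians (0.0061) and cyclic loess (0.0066). None of the genes whose sign turned (Nos2, Nos3, Asl, Ddah2, Prmt5, Prmt7, Nags and Cps1) passed in any setting. The gain of Ddah1 on Ddah2 was 0.88 with quantile normalization. The shared probe set of Ass1 and Gm5424 was 0.84 in the fit with several-gene probe sets added, the one of its 6 other settings in which it passed. List genes that rose numbered 15 with protein-coding genes alone and at an adjusted p of 0.1, and 5 at an adjusted p of 0.01, against 8. Those that fell numbered 3 with the exon control shift taken off, with protein-coding genes alone and at an adjusted p of 0.1, and 0 without the intensity trend, with robust eBayes, with the mean of probe sets, over every transcript cluster, with equal array medians and at an adjusted p of 0.01, against 1. The causes were not tested.

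The difference between the WT arrays and that between the SCD arrays had a correlation of -0.0022 across 30702 genes, which are not independent. This value cannot tell whether same-numbered lungs were handled together, and the labels do not say. With the replicate block, Gch1 remained at 1.32 (adjusted p = 0.011) and Ddah1 at 0.93 (adjusted p = 0.012), and 973 genes were called against 952; the shared probe set stayed at 0.84 (adjusted p = 0.142), and the list genes that rose numbered 7. The number of arrays and the dim signal of 6 of the 9 genes limit what can be seen.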
